A study of Homo sapiens with 26 samples.

Results

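The 8 genes described here encode the subunits of CCT, also called TRiC, the chaperonin of the eukaryotic cytosol: TCP1 (the alpha subunit, CCT1), CCT2, CCT3, CCT4, CCT5, CCT6A, CCT7 and CCT8. They were taken by gene symbol from the 4 deposited count tables, where each was found once, as 8 of 19447 gene symbols on 19478 transcripts. The lowest count of any subunit in any library was 36, and all 8 passed the filter on low counts in every comparison. The values are ribosome footprints, the fragments of mRNA that a ribosome shields from nuclease. They are read here as a measure of how much of each protein was being made. A footprint level depends both on the amount of mRNA and on its load of ribosomes, and the values used here do not separate them.

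CCT is built of a pair of stacked rings, and each ring holds 1 copy of each of the 8 subunits in a fixed order. The assembled particle encloses newly made proteins that cannot fold alone, actin and the tubulins among them, and closes over them when its subunits hydrolyse ATP. TCP1, CCT2, CCT4 and CCT5 form the side of the ring that binds ATP strongly, and CCT3, CCT6A, CCT7 and CCT8 form the side that binds it weakly. Since 1 complex takes equal numbers of every subunit, synthesis in proportion to assembly would give every subunit an equal share, 12.5%, of footprints per length of coding sequence.

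The 26 libraries came from 3 human cell lines and differed in how ribosomal RNA was removed. HEK293T, a line from embryonic kidney, had 8 libraries: 2 undepleted, and 2 each treated with NEBNext, Ribo-Zero Gold and RiboCop, from fragments of 15 to 35 nt. HEK293FT, a related kidney line, had 1 undepleted library and 1 treated with custom oligos, also of 15 to 35 nt. K562, a line from a chronic myeloid leukaemia, had 12 libraries of 20 to 34 nt in a table of kits: 2 undepleted, 2 with FastSelect, 2 with riboPools, 2 with riboPools and cold elution, and 1 each of Ribo-Zero Plus alone, with added oligos, with formaldehyde and with both. Another K562 table held 4 single libraries, titled NEBNext or undepleted at 20 to 34 nt and at 20 to 60 nt. Both of its libraries titled undepleted also carry a label naming NEBNext, so the comparison within that table goes by title. All lysates were prepared with cycloheximide and digested with RNase I, and the labels name no genetic change or drug. They do not say whether replicates came from separate cultures, so p-values measure the spread between libraries, which may be technical.

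Library totals ran from 46858 to 5795774 counts, with 120019 to 421521 in HEK293T and 1031889 to 5795774 in the 8 K562 libraries of the kit table that form pairs. The cell lines matched their labels. Of 6 erythroid or leukaemia genes typical of K562, HBG1, HBG2, HBE1, HBZ and GATA1 had 0 counts in all 8 HEK293T libraries, where the 6 summed to at most 6.52 CPM (counts per 1000000 counts of the library), against 3439 to 12680 CPM in the 16 K562 libraries. The 3 genes typical of HEK293 lines (PAX2, NEFM, NEFL) summed to 293 to 612 CPM in HEK293T, 199 to 210 CPM in HEK293FT and at most 0.543 CPM in K562, where PAX2 and NEFM were at 0.

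The 8 genes lie at separate loci on 7 chromosomes and have coding sequences of nearly equal length, 1593 nt (CCT6A) to 1668 nt (TCP1), or 531 to 556 codons without the stop. On GRCh38, with GENCODE 29, TCP1 spans chr6:159778498-159789749 on the minus strand and CCT2 chr12:69585334-69601570 on the plus strand. CCT3 spans chr1:156308968-156338465 (minus), and CCT4 and CCT7 share chromosome 2, at chr2:61868089-61888804 (minus) and chr2:73234238-73253004 (plus). CCT5 spans chr5:10249921-10266412 (plus), CCT6A chr7:56051630-56063989 (plus) and CCT8 chr21:29056324-29073797 (minus). The GC content of the coding sequences ran from 41.7% (CCT8) to 51.5% (CCT7), and all 8 lay below the median of 52.9% over all coding sequences. Pseudogenes named after the subunits number 13 in GENCODE 29, 4 of them of CCT6A and none of CCT2 or CCT3. How the authors counted reads that match several places is not given in the sources used here, so small differences for the 6 subunits with pseudogenes are uncertain. TCP1 and CCT3 overlap the protein-coding genes ACAT2 and TSACC on the opposite strand, and CCT4 and CCT5 overlap antisense transcripts.

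A feature that joins the 8 genes is the short stretch that encodes Gly-Asp-Gly-Thr, part of the site that holds ATP in chaperonins. Each coding sequence contains it exactly once in frame, against 189 of 18948 coding sequences searched in frame on the sense strand (1%). The stretch is shown because all 8 coding sequences encode it. Its Asp codon is GAT in every gene, while the Gly and Thr codons vary from gene to gene. In the sequences below, read 5′ to 3′ from GENCODE 29 transcripts on the sense strand, capitals mark the 12 bases of the 4 codons, with 18 bases on either side.
TCP1: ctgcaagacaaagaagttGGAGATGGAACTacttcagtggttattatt
CCT2: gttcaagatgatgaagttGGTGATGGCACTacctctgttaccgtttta
CCT4: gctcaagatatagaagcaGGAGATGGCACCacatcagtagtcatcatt
CCT5: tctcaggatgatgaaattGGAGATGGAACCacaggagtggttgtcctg
CCT3: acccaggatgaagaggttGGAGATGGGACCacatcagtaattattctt
CCT6A: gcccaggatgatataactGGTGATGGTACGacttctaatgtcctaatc
CCT7: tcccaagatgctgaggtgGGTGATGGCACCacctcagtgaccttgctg
CCT8: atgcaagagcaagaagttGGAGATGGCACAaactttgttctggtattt
The motif begins between codon 87 (TCP1) and codon 103 (CCT4 and CCT5), near the start of each protein. It is a description of the family and was not tied to any footprint value.

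CCT subunits were among the most heavily translated genes in all 3 lines. Together they took 0.869% to 0.996% of all counts in the 8 HEK293T libraries, 0.752% and 0.770% in the 2 HEK293FT libraries and 0.778% to 0.859% in the 16 K562 libraries. By CPM per kb of coding length, the scale used for levels from here on, every subunit in the undepleted libraries stood between the percentiles 95.7 (CCT2 in K562) and 98.3 (CCT3 in HEK293FT) of the genes with counts. The share of all counts was higher in both undepleted HEK293T libraries (0.883% and 0.869%) than in both undepleted K562 libraries of the kit table (0.821% and 0.831%). With 2 libraries against 2, the exact two-sided permutation test gave p = 0.333, the smallest it allows.

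Within 1 library, the levels of the subunits were less alike than counting error alone would give. That levels stand for rates of synthesis is an assumption that was not tested. The coefficient of variation (CV, the SD over the mean) of the 8 levels was 23.0% and 18.2% in the undepleted HEK293T libraries, where counting error alone would give 8.69% and 7.75%. It was 26.5% and 27.1% in the undepleted K562 libraries of the kit table, against 2.93% and 3.06% from counting. In the undepleted HEK293FT library it was 32.9%, against 3.40%. The gap between the most and the least translated subunit ran from 1.53-fold to 2.94-fold over the 26 libraries. Another measure was the share of length-scaled CCT footprints above the level of the least translated subunit. This excess was 30.6% and 17.6% in undepleted HEK293T, 39.7% and 39.1% in the undepleted K562 kit table pair and 39.1% in undepleted HEK293FT. In the K562 size table it was 42.0% and 24.7% for the libraries titled undepleted of 20 to 34 and 20 to 60 nt. Counting error adds to this excess, more so in shallow libraries, and was not subtracted. The CV of both K562 kit table libraries was above that of both HEK293T libraries. An exact permutation test over 2 against 2 libraries again could not go below p = 0.333. The K562 size table libraries titled undepleted had CVs of 25.7% (20 to 34 nt) and 17.45% (20 to 60 nt). The second value lay below both HEK293T values, in a library where counting alone would give 14.4%.

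Other complexes with fixed subunit ratios were less even. The CV of the 14 genes of the 20S proteasome, the barrel that degrades proteins, was above that of CCT in 26 of 26 libraries and ran from 29.6% to 63.0%. The CV of the 6 MCM2-7 genes, which encode the ring that unwinds DNA at replication, was also above it in 26 of 26 libraries, at 35.5% to 91.9%. So was the CV of the 6 genes of prefoldin, which hands actin and tubulin to CCT, at 33.7% to 95.9%. Prefoldin genes have fewer counts, so counting error takes more of that spread. In the K562 library titled undepleted of 20 to 60 nt, counting alone would give prefoldin 41.3%, above the 36.2% found. The 3 lists also differ from CCT in number and length of genes.

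**Figure D1:**
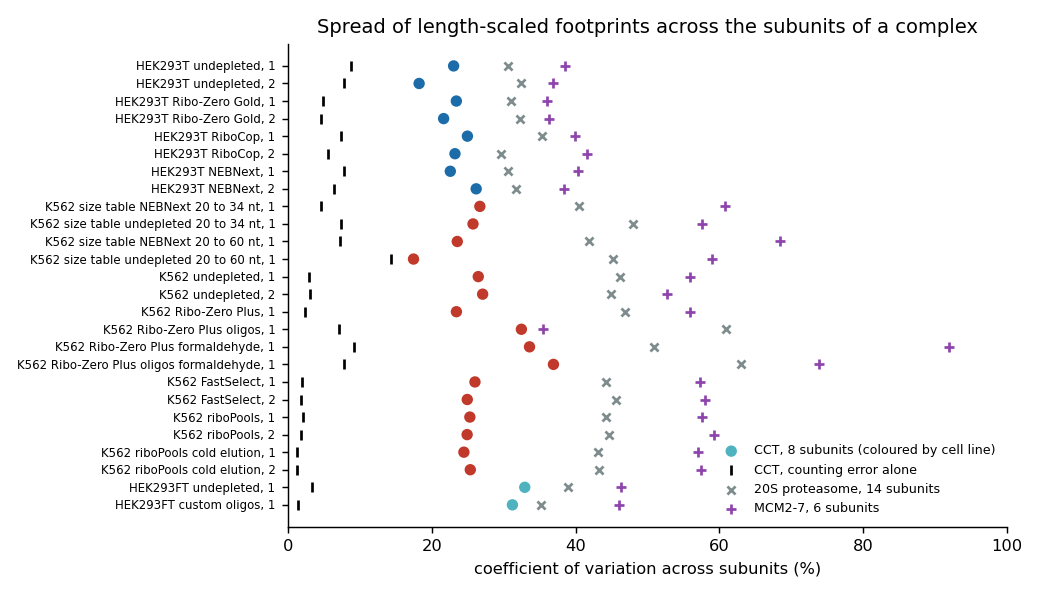
Coefficient of variation in percent (x axis) of CPM per kb across the subunits of a complex, 1 row per library (y axis). Circles are the 8 CCT subunits, coloured blue for HEK293T, red for K562 and teal for HEK293FT, vertical ticks are what counting error alone would give CCT, grey crosses are the 14 20S proteasome genes and purple plus signs the 6 MCM genes. The CCT value is the lowest of the 3 complexes in all 26 libraries and lies above its counting error in all of them.

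Which subunit was made most differed between HEK293T and K562. In HEK293T, CCT3 stood highest at 877 ± 50.4 CPM per kb (SD, n = 2), CCT4 and CCT7 followed at 812 each, CCT6A, TCP1 and CCT2 lay at 621, 603 and 589, and CCT5 and CCT8 were lowest at 560 and 513. Neighbours whose 2 libraries overlapped were CCT4 and CCT7, CCT6A and TCP1, TCP1 and CCT2, and CCT5 and CCT8. In the undepleted pair of the K562 kit table, CCT8 stood highest at 909 ± 21.4 CPM per kb (SD, n = 2), then CCT5 at 816, TCP1 at 702, CCT3 at 599, CCT7 at 577, CCT4 at 571, CCT6A at 508 and CCT2 at 384. Only CCT7 and CCT4 overlapped their neighbour there. The 2 subunits lowest in HEK293T, CCT5 and CCT8, were thus the 2 highest in this K562 pair. In all 4 libraries of the K562 size table CCT5 rather than CCT8 stood highest (813 against 796 CPM per kb in the library titled undepleted of 20 to 34 nt). In the library titled undepleted of 20 to 60 nt, TCP1 (755) also lay above CCT8 (714). Across the 8 subunits, Pearson's r between the mean shares of CCT footprints in HEK293T and in this K562 pair was -0.40. It is a description over 8 genes that are not independent replicates.

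Among the subunits of the strong ATP side, TCP1 and CCT5 were higher in K562, and CCT2 and CCT4 were lower. TCP1 had 589 and 617 CPM per kb in the undepleted HEK293T libraries and 707 and 697 in the undepleted K562 libraries. K562 values here and in the next paragraph are those of the kit table pair unless named otherwise. CCT5 had 570 and 550 in HEK293T against 805 and 826 in K562. Neither subunit's libraries overlapped between the lines. CCT2 had 581 and 597 in HEK293T against 380 and 388 in K562, and CCT4 had 830 and 794 against 564 and 577. The opposed shifts left this side's summed share of CCT footprints nearly level, at 47.3% and 47.9% in HEK293T and 48.8% in both K562 libraries.

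Among the subunits of the weak ATP side, CCT8 was higher in K562, and CCT3 and CCT7 were lower. CCT8 had 471 and 555 CPM per kb in HEK293T against 894 and 924 in K562, the widest gap of the 8. CCT3 had 912 and 841 against 599 in both K562 libraries, and CCT7 had 824 and 800 against 591 and 563. CCT6A had 654 and 589 in HEK293T against 495 and 521 in K562. The K562 library of the size table titled undepleted of 20 to 60 nt had 589.5, above the lower HEK293T value of 589.0.

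**Figure D2:**
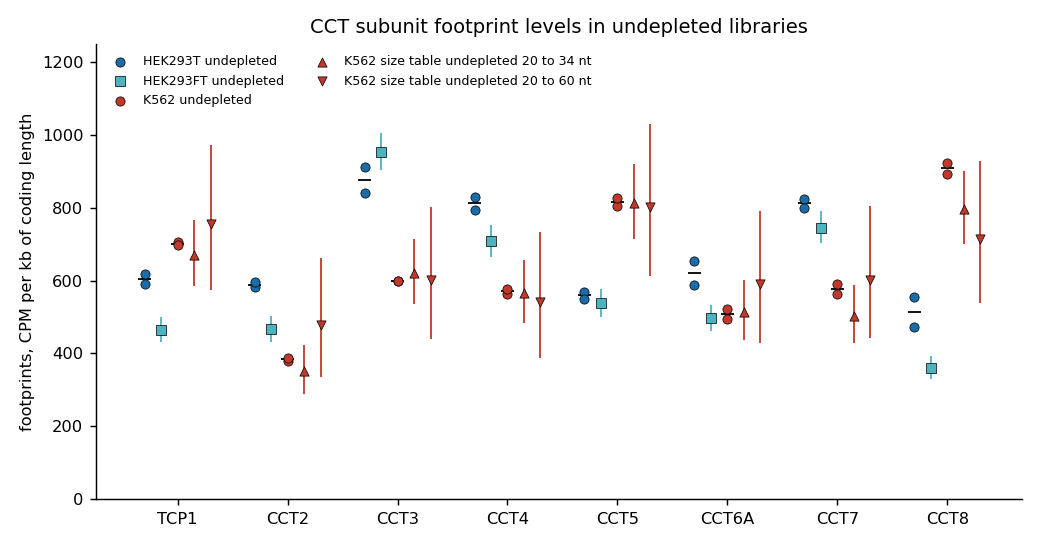
Footprint level of each CCT subunit (x axis) in CPM per kb of coding length (y axis, from 0) in the 7 undepleted libraries. Points are libraries, short black lines are means of 2 libraries, and vertical lines are 95% exact Poisson intervals, which cover counting error only, for groups of 1 library. CCT5 and CCT8 stand highest in K562, except in the library of 20 to 60 nt, where TCP1 lies between CCT5 and CCT8. CCT3 stands highest in the undepleted libraries of HEK293T and HEK293FT.

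These differences were tested with edgeR's quasi-likelihood test on the counts of all 7 undepleted libraries, with TMM scaling and Benjamini-Hochberg adjustment over 5551 genes. Between K562 and HEK293T, 7 of the 8 subunits passed an adjusted p under 0.05, 3 higher and 4 lower, where 45.6% of all genes tested passed. With so high a background, a call by itself sets no subunit apart from other genes. CCT8 was 1.93-fold higher in K562 (log2 fold change 0.94, SE 0.10, adjusted p = 2.37e-21) and CCT5 1.60-fold higher (0.68, SE 0.10, adjusted p = 2.19e-11). TCP1 was 1.27-fold higher (log2 fold change 0.35, SE 0.10, adjusted p = 0.000966). CCT2 was at 0.714 of its HEK293T level, CCT3 at 0.754, CCT4 at 0.774 and CCT7 at 0.783, with adjusted p between 2.43e-05 (CCT3) and 0.000440 (CCT7). CCT6A missed the threshold, at 0.902 of the HEK293T level with an approximate 95% interval of 0.785 to 1.04 and an adjusted p of 0.227. The median log2 fold change of the 8 was -0.25, beside 0.01 over all genes tested.

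The calls for CCT8 and CCT5 held under every alternative run, with log2 fold changes of 0.76 to 1.19 and of 0.51 to 0.80. TCP1 was not called with DESeq2 (adjusted p = 0.0826), with scaling to total counts (0.0549) or with a minimum mean of 50 counts (0.0946), and the last 2 settings called CCT6A lower instead (log2 fold change -0.28 and -0.32, adjusted p = 0.0153 and 0.00785). Without HEK293T undepleted replicate 1, CCT3, CCT4 and CCT7 were no longer called, and without replicate 2 the lost calls were CCT2, CCT4 and CCT7, so that 4 subunits remained called in each case. The K562 undepleted library of 20 to 34 nt in the size table, set in place of the kit table pair, gave CCT8 a log2 fold change of 0.76 and CCT5 0.68, and called 6 of 8 where 28.1% of all genes passed, with TCP1 the call that was lost (0.29, adjusted p = 0.115). That library held 190243 counts, near the totals of HEK293T, while the undepleted HEK293FT library held 900763. Cell line, table and size selection differ together between HEK293T and K562 and cannot be told apart.

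Shares and ratios within a library need no scaling between libraries and were compared over all of them, depleted ones included. CCT3 was the subunit with the highest level in 6 of 8 HEK293T libraries and CCT7 in the other two, both of RiboCop, while CCT2 was the lowest in 11 of the 12 K562 libraries of the kit table and in all 4 of the size table. The share of CCT8 ran from 8.17% to 10.4% over 8 HEK293T libraries and from 14.1% to 18.9% over 16 K562 libraries. The share of CCT5 ran from 9.93% to 12.01% in HEK293T and from 14.2% to 21.7% in K562. On the other side, the share of CCT3 ran from 15.7% to 17.7% in HEK293T and from 8.51% to 13.3% in K562, that of CCT7 from 13.1% to 17.2% and from 7.51% to 11.9%, and that of CCT2 from 10.7% to 12.6% and from 6.18% to 9.42%. None of these 5 ranges overlapped between the lines. The CPM of the same 5 subunits did not overlap either, beside 30.9% of the 275 genes that averaged 100 counts or more in every table. The ranges of TCP1, CCT4 and CCT6A did overlap. For CCT4 the overlap came only from the Ribo-Zero Plus library with oligos and no formaldehyde (15.0%). The Ribo-Zero Plus libraries with formaldehyde (12.9%) and with both additions (12.8%) lay below the HEK293T range. Without the 3 libraries with additions, CCT4 spanned 14.1% to 15.9% in HEK293T and 10.7% to 13.3% in K562.

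**Figure D3:**
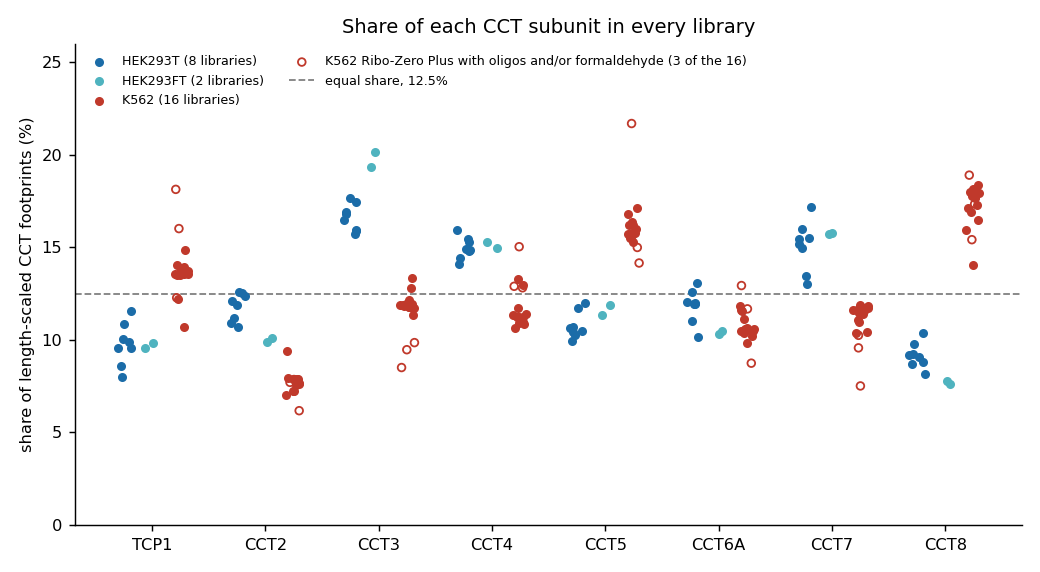
Share of each CCT subunit (x axis) in the summed CPM per kb of the 8 subunits, in percent (y axis, from 0), with 1 point per library and the dashed line at an equal share of 12.5%. Blue is HEK293T (8 libraries), teal HEK293FT (2) and red K562 (16), with open circles for the 3 Ribo-Zero Plus libraries with additions. CCT2, CCT3, CCT5, CCT7 and CCT8 show no overlap between HEK293T and K562.

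Ratios between subunits were compared over the same libraries, and the pairs named were chosen after their values were seen. CCT2 was made at 1.08 to 1.45 times the rate of CCT8 in 8 HEK293T libraries, at 1.30 times in both HEK293FT libraries and at 0.356 to 0.671 times in 16 K562 libraries. CCT3 was made at 1.33 to 1.68 times the rate of CCT5 in HEK293T, 1.63 and 1.78 times in HEK293FT, and 0.437 to 0.816 times in K562. Of the 28 pairs of subunits, 16 had ratios that did not overlap between the HEK293T and K562 libraries, and 17 without the 3 Ribo-Zero Plus libraries with additions. Over all pairs of those 275 genes, 31.1% of the ratios did not overlap. The ratio of CCT2 to CCT3 did overlap, with 0.637 to 0.752 in HEK293T and 0.544 to 0.830 in K562, while both HEK293FT libraries (0.490 and 0.524) lay below both ranges. The ratio of CCT3 to CCT7 ran from 0.924 to 1.36 in HEK293T, from 1.23 to 1.28 in HEK293FT and from 0.830 to 1.29 in K562. The ranges are a description with no test, since libraries of 1 line share cells or tables.

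HEK293FT resembled HEK293T in the order of the subunits. Its undepleted library had 953 CPM per kb for CCT3 and 360 for CCT8, the highest and the lowest of the 8, with CCT7 at 746 and CCT4 at 708 next to the top. Across the 8 subunits its shares gave r = 0.95 with HEK293T and r = -0.29 with the K562 kit table pair. It also extended the HEK293T pattern, as its CCT3 share of 19.3% and 20.2% lay above, and its CCT8 share of 7.61% and 7.78% below, all 8 HEK293T libraries. In the edgeR test against HEK293T, 1 of 8 subunits passed, where 7.87% of all genes did. That was CCT8, at 0.757 of its HEK293T level (log2 fold change -0.40, SE 0.12, adjusted p = 0.0206), and CCT3 came next at 1.19-fold (adjusted p = 0.0529). The CCT8 call was lost without HEK293T undepleted replicate 2 (log2 fold change -0.20, adjusted p = 0.696) and with no filter on low counts (-0.32, adjusted p = 0.173), where CCT3 was called higher instead (0.34, adjusted p = 0.00522) and 2.74% of genes passed. Scaling to total counts called 3 subunits lower (TCP1, CCT2 and CCT8), where 8.43% of genes passed. The single HEK293FT library was assumed to vary like the paired groups.

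The next question was whether a depletion kit alters what is measured for CCT, since the series concerns biases left by kits that digest RNA. NEBNext, which cuts RNA paired with DNA probes by RNase H, gave no subunit a call in HEK293T, where 3.24% of 4410 genes passed. CCT2 had 581 and 597 CPM per kb without depletion and 771 and 747 with NEBNext, a difference that did not pass the adjusted test (log2 fold change 0.38, SE 0.12, adjusted p = 0.0667). CCT6A had 654 and 589 without depletion and 772 and 781 with it (adjusted p = 0.103), and CCT3 had 912 and 841 against 1069 and 1055 (adjusted p = 0.103). CCT4 had 830 and 794 against 909 and 950, and CCT5 570 and 550 against 638 and 634. Both NEBNext libraries of these 5 subunits lay above both undepleted ones, as they did for 21.1% of all genes tested. CCT7 had 824 and 800 against 824 and 779, and TCP1 had 589 and 617 against 607 and 477, with overlap in both. The summed share of counts was 0.996% and 0.969% with NEBNext and 0.883% and 0.869% without, and an exact permutation test again stops at p = 0.333. At an unadjusted p under 0.05, 4 subunits passed edgeR, beside 637 of the 4410 genes, and 3 passed DESeq2, which called none after adjustment. With a minimum mean of 50 counts, edgeR called 3 subunits higher (CCT2, CCT3 and CCT6A), where 17.3% of 885 genes passed. With the replicate number as a block, edgeR called 1 subunit, CCT2, where 154 of 4410 genes passed. The absence of a call thus rests on the set of genes tested and on a fit without that block.

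In the K562 size table NEBNext again gave no subunit a call, where 2.85% of 3715 genes passed, with 1 subunit at an unadjusted p under 0.05 and 0 in DESeq2. The size of the effect ran from a log2 fold change of -0.23 (TCP1) to 0.34 (CCT4). CCT4 had 566 and 541 CPM per kb in the libraries titled undepleted and 702 and 619 in those titled NEBNext (adjusted p = 0.334). It was called without the NEBNext library of 20 to 60 nt (log2 fold change 0.42, adjusted p = 0.0191), where 6.26% of genes passed, in a fit of 3 libraries that had no term for size and whose spread came from 2 libraries of different sizes. CCT2, which had the largest estimate in HEK293T, had a log2 fold change of -0.04 here. A test of the NEBNext effect in K562 minus that in HEK293T called 0 of 8 subunits, where 0.296% of 4736 genes passed, and none passed an unadjusted p under 0.05. The largest difference was that of CCT2 (-0.41, SE 0.23, adjusted p = 0.647), and DESeq2 was not run for this term.

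Ribo-Zero Gold and RiboCop, which pull rRNA out on beads, left the subunits without a call in HEK293T. For Ribo-Zero Gold, 0 of 8 passed where 0.068% of genes did, with 1 (CCT2) at an unadjusted p under 0.05 in edgeR and 0 in DESeq2. For RiboCop, 0 of 8 passed where 0% of genes did, with 0 of 8 at an unadjusted p under 0.05 by either tool, beside 195 of 4410 genes in edgeR. CCT2 had 709 and 705 CPM per kb with Ribo-Zero Gold and 690 and 588 with RiboCop, and CCT7 had 931 and 926 with RiboCop. Over these 3 kits the 24 estimates ran from a log2 fold change of -0.21 to 0.38 with standard errors of up to 0.14. All 3 share the same 2 undepleted libraries, of 120019 and 153462 counts, so their estimates are not independent. TCP1 was estimated below the undepleted level with each of the 3 kits (-0.17, -0.13 and -0.21), and none of these passed.

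Deeper K562 libraries set tighter limits. FastSelect, which blocks reverse transcription of rRNA, called 0 of 8 subunits where 0.0197% of 10142 genes passed. The corresponding figures were 0 of 8 and 0.0887% for riboPools, another bead method, 0 of 8 and 0.237% for riboPools with cold elution, and 0 of 8 and 0.0296% for cold elution against standard riboPools. In the 32 estimates of these 4 comparisons the log2 fold change ran from -0.06 to 0.08 with standard errors of at most 0.05, and 1, CCT6A with FastSelect, had an unadjusted p under 0.05 in edgeR. DESeq2 called none and had none at an unadjusted p under 0.05. CCT8 illustrates the closeness, with 894 and 924 CPM per kb undepleted, 924 and 906 with FastSelect, 917 and 877 with riboPools and 904 and 918 with cold elution. CCT2, the least translated subunit in K562, had 380 and 388, 396 and 397, 405 and 390, and 403 and 401 in the same order. The CV across subunits stayed between 24.5% and 27.1% in these 8 libraries.

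**Figure D4:**
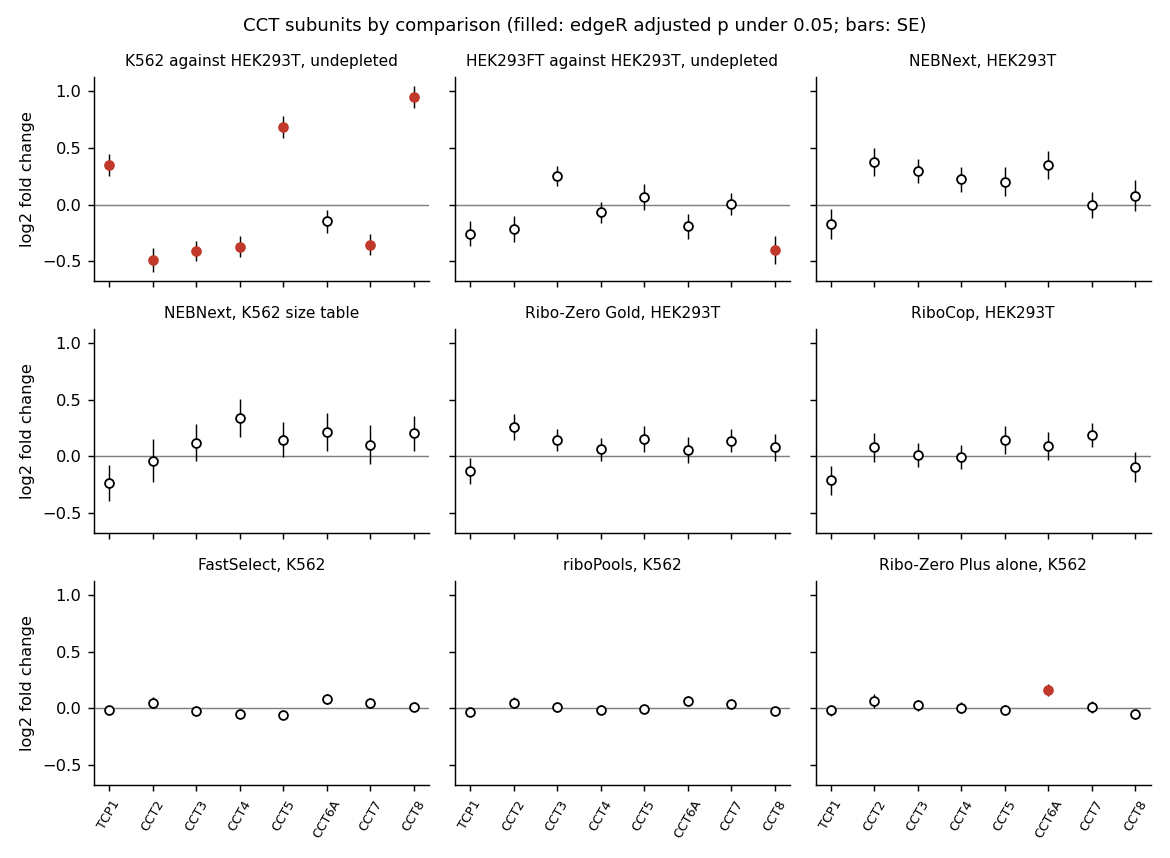
Log2 fold change (y axis) of each CCT subunit (x axis) in 9 comparisons fitted with edgeR, with bars of 1 standard error and filled points where the adjusted p was under 0.05. The upper left panel compares cell lines and holds 7 filled points, the upper middle panel holds 1 (CCT8), and of the kit panels 1 point is filled, CCT6A with Ribo-Zero Plus alone, while the remaining kits compared with undepleted libraries have none.

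Ribo-Zero Plus, another kit that digests rRNA paired with probes, was represented by 4 single libraries. Alone it called 1 of 8 subunits where 20.3% of genes passed. CCT6A had 495 and 521 CPM per kb undepleted and 560 with the kit (log2 fold change 0.16, SE 0.05, adjusted p = 0.0165), a call that was lost without K562 undepleted replicate 1 (0.12, adjusted p = 0.193). The other 7 log2 fold changes lay between -0.05 and 0.07. The library's spread was assumed to be that of the pairs, which no second library checks.

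With additions, levels of the subunits lay further apart. Adding oligos called 4 subunits (1 higher, 3 lower) where 29.3% of genes passed, formaldehyde called 5, all lower, where 25.7% passed, and both together called 4, all lower, where 30.1% passed. These libraries held 116742 to 184722 counts, and the median of all genes tested was a log2 fold change of -0.64, -1.25 and -0.81, beside -0.19, -0.35 and -0.29 for the 8 subunits. With scaling to total counts the 8 subunits split 2 higher and 0 lower with oligos, 1 and 1 with formaldehyde and 2 and 3 with both, so which subunits were called depends on the scaling. Over all genes, scaling to total counts moved the split from 741 higher and 1863 lower to 995 and 1258 with formaldehyde, from 964 and 2008 to 1170 and 1565 with oligos, and from 949 and 2103 to 1166 and 1643 with both.

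Shares, which need no scaling, showed which subunits stood out in these libraries. CCT5 took 21.7% of CCT footprints with both additions, 14.2% with oligos and 15.0% with formaldehyde, against 16% and 16.2% undepleted. With both additions CCT7 took 7.51% against 11.7% and 11.1%. TCP1 took 18.1% with formaldehyde, 16.02% with oligos and 12.3% with both, against 14.03% and 13.7%. CCT4 took 15.0% with oligos, against 11.2% and 11.3%. CCT3 was low in all 3, at 9.86%, 8.51% and 9.47%, against 11.9% and 11.8%, and its log2 fold change was below 0 in all 3 under both scalings, though with oligos the call was lost under scaling to total counts (adjusted p = 0.137). The CV across subunits was 32.5% with oligos, 33.6% with formaldehyde and 36.9% with both, where counting alone would give 7.14%, 9.24% and 7.84%. The side with strong ATP binding took 52.2% to 54.7% of CCT footprints in the 3, above the 47.8% to 50.7% of the other 13 K562 libraries. With 1 library each, these values have no replicate check, and whether they follow from depth or from the treatment was not tested.

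Custom oligos in HEK293FT left the subunits close to their undepleted levels, by 1 library each and thus with no test. Ratios of CPM ran from 0.938 (CCT3, 893.7 against 953.3 CPM per kb) to 1.02 (CCT5, 549.6 against 537.0). Counting intervals at 95% included 1 for 7 of 8 subunits, and that of CCT3 was 0.886 to 0.993. All 8 ratios lay within 1.1-fold, beside 54.7% of the 5225 genes that averaged 100 counts or more over both libraries. The subunits had 533 (CCT8) to 1404 (CCT3) undepleted counts. Genes with fewer counts scatter more by counting alone, so that share is not a like comparison and does not set the subunits apart.

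Partners and clients of CCT did not shift as a block, and neither did the subunits. The lists are 6 prefoldin genes, 4 co-factors (phosducin-like proteins, TXNDC9 and PDCD5), 14 client genes, and 7 other chaperonins. Between K562 and HEK293T, prefoldin had 1 call higher (PFDN6, log2 fold change 0.89), 1 lower (VBP1, -0.66) and 4 not called, with a median of 0.07, and the co-factors had 0 of 4. Of 13 clients tested, 4 were higher in K562, ACTB (0.48), TUBB (0.47), GNB2 (0.55) and TUBA1C (0.21), and 2 lower, TUBA1A (-0.31) and TUBA1B (-0.19), with a median of 0.10. These 6 of 13 stand beside the 45.6% of all genes that passed, so the count is near the background. HSPD1 and HSPE1, the mitochondrial chaperonin and its lid, were both lower in K562 (-0.97 and -0.69). HSPD1 had 1469 ± 110 CPM per kb in HEK293T and 686 ± 1.94 in K562 (SD, n = 2). CCT6B, the paralogue of CCT6A, had 0 counts in both undepleted HEK293T libraries and 5 and 9 in those of the K562 kit table, where CCT6A had 895 and 856. The HEK293T libraries held 120019 and 153462 counts in total, against 1135460 and 1031889, so the CCT6B counts show no difference between the lines.

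Between HEK293FT and HEK293T, 5 of 13 clients were higher, ACTB (log2 fold change 0.56), ACTG1 (0.71), GNB1 (0.61), TUBB4B (0.36) and TUBA1B (0.21), while 0 of 6 prefoldin genes and 0 of 4 co-factors passed, beside 7.87% of all genes. HSPD1 was lower (-0.23). Tubulin and actin genes have near-identical copies, so their split between members is uncertain. NEBNext called HSPE1 higher in HEK293T (0.76, adjusted p = 0.000733), with a difference of -1.57 for K562 minus HEK293T (adjusted p = 0.00343), and GNB1 higher in the K562 size table (1.39). FastSelect and both forms of riboPools called none of the genes in these lists.

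Over the 18 labelled groups, the genes whose log2(CPM + 1) went most closely with the mean of the 8 subunits were HSPA4 (r = 0.84), HSP90B1 (0.80), HSPA5 (0.75), HNRNPL (0.74) and PAICS (0.72), among the 275 genes that averaged 100 counts or more in every table. HSPA4 is a cytosolic partner of HSP70, HSP90B1 and HSPA5 are chaperones of the endoplasmic reticulum, HNRNPL binds RNA and PAICS makes purines. The subunits themselves ran from 0.78 (CCT2) to -0.22 (CCT5), with TCP1 at -0.07 and CCT8 at -0.06. The 18 groups share cell lines and tables, so these coefficients are descriptions. The mean of the 8 follows CCT2, CCT6A, CCT7 and CCT4 more than the 3 subunits that were higher in K562.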

How the data were processed

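Ribosome footprints of 26 libraries were analysed. The 4 deposited tables give, per the file headers, a whole-number count for the coding sequence of 1 transcript in each row, and the deposited RPM values equal the counts scaled to each library's total, so tests used the counts. The submitters' processing notes name CASAVA 1.8, STAR and GRCh38. The annotation, duplicate removal, strand setting and handling of reads that match several genes are not given in the sources used here. Reads copied by PCR are not independent molecules, so intervals hold counting error alone. The libraries had between 46858 and 5795774 counts.

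Samples were grouped by title. A level is CPM divided by coding length in kb, from GENCODE 29 (97.28% of 19478 transcripts matched), without the stop codon. A share is a subunit's percent of the summed levels of the 8. The quasi-likelihood test of edgeR 4.0.16, run in R 4.3.3 with TMM scaling and filterByExpr (minimum count 10), was applied to the counts. Its p-values were adjusted over all genes of a comparison by the Benjamini-Hochberg method and called under 0.05. Each fit held all libraries of the table with 1 term per group, except the K562 size table, which had NEBNext and size as additive terms and 1 residual degree of freedom. The fit of cell lines held all 7 undepleted libraries, and the interaction fit the 8 undepleted or NEBNext libraries of the HEK293T and size tables. Groups of 1 library were assumed to vary like the paired ones. The test was checked on simulated counts. Approximate 95% intervals of folds are the log2 fold change with its standard error on a normal scale.

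Genes and lists were chosen with earlier results of these data known. Genes named beside the 8 subunits are those called in a comparison of undepleted libraries or of a kit with at least 2 libraries, and the 5 genes with the highest correlation with the subunits' mean. DESeq2 1.42.0, other scalings and filters, and leaving out each replicate were tried. The 2 RiboCop libraries agreed within sampling noise (chi-square p = 0.103), but both were kept because their barcodes and totals (156200 and 290502 counts) differ. A gene of the K562 marker list is not reported here.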

Additional observations from a re-analysis of the deposited data

How the results depend on the processing

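Of 1176 values for single subunits recomputed under the alternatives, 1103 kept their direction and their side of the threshold, 44 lost a call, 27 gained one and 2 reversed. The counts of called subunits that moved by over 1.5 times were these. Between HEK293FT and HEK293T (1 called), 2 were called with a minimum mean of 50 counts, 3 with scaling to total counts and 0 to 2 without either HEK293T undepleted library. Between K562 and HEK293T (7 called), leaving out 1 library gave 4 to 7. For NEBNext in HEK293T (0 called), 3 were called with a minimum mean of 50 counts. For NEBNext in the K562 size table (0 called), leaving out 1 library, and with it the term for size, gave 0 to 1. For Ribo-Zero Plus with formaldehyde (5 called), 2 were called with DESeq2's size factors in edgeR, 2 with a minimum mean of 50 counts, 2 with scaling to total counts and 3 with additive terms for oligos and formaldehyde over the 4 Ribo-Zero Plus libraries. For Ribo-Zero Plus with oligos (4 called), the first 3 of these settings called 2 each. For Ribo-Zero Plus alone (1 called), the additive fit called 3, with CCT3 (-0.36) and CCT7 (-0.39) turned below 0 on the log2 scale because the mean of all 4 libraries then stands for the kit, and leaving out 1 undepleted library gave 0 to 1. The CV across subunits in the undepleted K562 pair of the kit table, 26.8% with length scaling, was 27.6% without it. The cause of the other changes was not tested.

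Replicate numbers in the labels were not taken to pair the libraries, since not every correlation was over 0.1: deviations of same-numbered libraries correlated at 0.065 to 0.137 in HEK293T (4 of 6 pairs of groups over 0.1) and at -0.049 to 0.020 in the K562 kits (0 of 6). With the replicate number as a block, the NEBNext comparison in HEK293T called 1 subunit (CCT2, log2 fold change 0.38, adjusted p = 0.0437), and no other subunit call changed. The 8-library K562 fit with and without the block, the second chosen after seeing the data, as were the CVs with a replicate left out, called 0 of 8 in all 4 comparisons. The RefSeq protein lengths planned as an alternative scale were not run. Between HEK293FT and HEK293T, scaling to total counts moved the split over all genes from 275 higher and 162 lower to 191 and 277, and the median log2 fold change to -0.11; between K562 and HEK293T it moved the median to -0.12. Depth limits the shallowest libraries, with 36 to 61 counts per subunit in the K562 library titled undepleted of 20 to 60 nt and 93 to 211 in undepleted HEK293T.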
